A study of Mus musculus with 18 samples.

Results

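Of the 27962 gene names on a mouse whole genome array, 7 are described here through all of their probes, 9 of 41174. They are BC005655 and Irg1, with 2 probes each, and LOC671351, Dcpp, LOC630537, C630041L24Rik and Lcn2, with 1 probe each. They were chosen because their values were higher in the main population of thyroid cells after surgery than in the main population of control glands. That contrast therefore describes them and is not tested. The common label, secreted genes, covers the salivary type proteins, the protease inhibitor and the lipocalin. It does not cover Irg1, now named Acod1, whose product is an enzyme of the mitochondrion.

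The samples came from the thyroids of C57BL/6 mice, with males and females both named in the labels. After partial thyroidectomy, main population cells gave 3 arrays (TMP) and side population cells 6 (TSP). Glands without the operation gave 3 arrays of main population cells (CMP) and 6 of side population cells (CSP). All glands, operated or not, were digested with collagenase and dispase, and all cells were kept in culture for 2 days. They were then stained with Hoechst 33342, a DNA dye, and sorted by flow cytometry. Side population cells pump the dye out, and staining with verapamil, which blocks the pumps, served as the comparison. The main population is all other cells, so it holds many cell types. Each array carried Cy5-labelled RNA of 1 sample and a Cy3-labelled mixture of RNA from 10 tissues or stages of Swiss Webster mice, without a dye swap. Values are log2 ratios of the sample over that mixture, so levels of different probes are not set against each other.

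The demilune cell and parotid proteins, or Dcpp, are small secreted proteins best known from the salivary glands of the mouse, where several nearly identical genes lie side by side. Lipocalin 2, encoded by Lcn2, is secreted by neutrophils and inflamed epithelia and withholds iron from bacteria by binding their siderophores. Kazal type inhibitors such as Spink8 belong to a family that blocks serine proteases in secretions, and Irg1 makes itaconate in macrophages exposed to bacterial products.

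Of the 7 names, 4 belong to the Dcpp group, and their probes are shown because they decide how far these genes can be told apart. The name BC005655 is listed by RefSeq as a synonym of Dcpp1, Dcpp is Dcpp1 by its accession, and LOC630537 is Dcpp2. LOC671351 had no entry in the RefSeq table used here, and the array describes it as similar to common salivary protein 1. The capitals mark the 14 bases that all 5 probes hold.
BC005655 A_51_P236483: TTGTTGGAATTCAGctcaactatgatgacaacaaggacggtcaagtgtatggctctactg
BC005655 A_51_P236486: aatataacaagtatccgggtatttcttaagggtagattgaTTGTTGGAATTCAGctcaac
LOC671351 A_52_P497392: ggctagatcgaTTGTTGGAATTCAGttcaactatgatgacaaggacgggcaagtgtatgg
Dcpp A_51_P309754: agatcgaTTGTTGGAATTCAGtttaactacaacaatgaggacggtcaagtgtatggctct
LOC630537 A_52_P535962: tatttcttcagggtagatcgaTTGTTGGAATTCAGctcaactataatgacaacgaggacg

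The shared stretch occurred in 5 of the 41174 probes of the array, and these were the 5 shown. Aligned on it, the probes overlapped in part. The LOC630537 probe matched A_51_P236486 of BC005655 at 39 of 41 overlapping bases and A_51_P236483 at 37 of 39. The LOC671351 probe matched the Dcpp probe at 48 of 56 overlapping bases and LOC630537 at 42 of 50. The Dcpp and LOC630537 probes matched at 34 of 46. These counts allow no gaps, and pairs with few matches are not given. Probes this similar may each bind RNA of more than 1 Dcpp gene, so the 5 probes report on the Dcpp group and their separate gene names are uncertain.

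In mouse build mm7, as the array annotation gives it, the BC005655 probes lie at chr17:22062329-22062382 and chr17:22061302-22061348. The LOC671351 probe spans chr17:22097921-22098962, and the RefSeq table also places Dcpp1 and Dcpp2 on chromosome 17. The annotation places the Spink8 probe at chr9:109517325-109523059 and the Lcn2 probe at chr2:32392828-32393072. The Irg1 probes lie at chr14:97488885-97488945 and chr14:97488905-97488965 and share 40 of their 60 bases, so they are not independent readings. No genome of this build was used, and the position of the probes within exons was not examined.

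The likeness of the Dcpp genes extends to their promoters. In the RefSeq promoter table (GRCm38.p6), Dcpp1 and Dcpp2 shared 96.7% of aligned bases, Dcpp1 and Dcpp3 97.6%, and Dcpp2 and Dcpp3 97.2%. The 60 bases shown are on the plus strand, and capitals mark TATAAG, a form of the TATA box that was picked after the sequences were seen.
Dcpp1 (chr17:23880816-23880875): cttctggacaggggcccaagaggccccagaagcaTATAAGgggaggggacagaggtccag
Dcpp2 (chr17:23898662-23898721): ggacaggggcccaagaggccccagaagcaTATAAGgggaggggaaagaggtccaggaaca
Dcpp3 (chr17:23917398-23917457): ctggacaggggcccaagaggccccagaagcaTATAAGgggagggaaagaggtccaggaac

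Searched on both strands of the 250 bases before each gene's start, TATAAG occurred in 6.65% of 32851 promoters, among them Dcpp1, Dcpp2, Dcpp3 and Acod1. A loose form of the NF-kB site, a run of G and a pair of C around any bases, occurred in Dcpp1, Dcpp2, Dcpp3, Lcn2 and Acod1, but also in 45.8% of all promoters. TTGCNNAA, a form of the C/EBP site, occurred in the Lcn2 promoter, in none of the other 4, and in 9.56% of all promoters. TGANTCA, a form of the AP-1 site, and TTCNNNGAA, the GAS element, occurred in none of the 5. These windows were read from letters alone. Spink8 is named only.

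In Cy5, the channel of the thyroid RNA, 38.8% to 72% of spots were well above background, and precision is limited by how few arrays there are. There were 5 slides: each of slides 2, 4 and 5 held 1 TMP and 1 CMP array, and slides 1 and 3 each held 2 TSP and 2 CSP arrays. The 2 arrays labelled TSP 1 and TSP 2 resembled the main population in their whole profile, with a median correlation over 29162 probes of 0.942 with main population arrays and 0.687 with the other side population arrays. Results of the side population are therefore given with and without them. All 9 probes passed the filter on dim probes, which kept 29822 of 41174.

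After surgery all 9 probes had higher means in the main population. The mean difference TMP minus CMP, in log2 units, ran between 0.91 and 1.76 with a median of 1.27, beside a median of -0.00289 over all 29822 probes. The 5 probes of largest positive difference on the array were both BC005655 probes, LOC671351, Spink8 and Lcn2. This is how the genes were found, and nothing is read from it. In RNA of sorted bulk cells, a change in the number of cells of a type and a change in RNA per cell cannot be told apart.

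**Figure D1:**
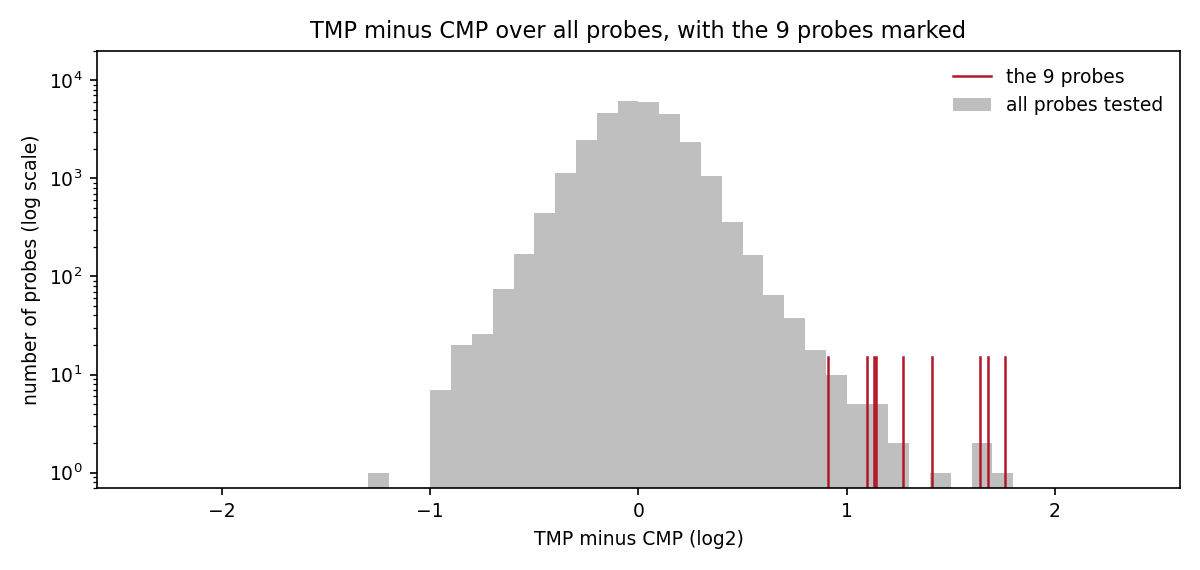
Number of probes (log scale) by their mean difference TMP minus CMP (log2), in bins of 0.1, over 29822 probes. The red lines are the 9 probes of the 7 genes, which lie between 0.91 and 1.76, at the upper end they were chosen from.

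The BC005655 probe A_51_P236483 read -1.33, -1.02 and -0.90 on TMP 1, TMP 2 and TMP 3, against -2.96, -3.12 and -2.44 on CMP 1, CMP 2 and CMP 3. Every TMP value lay above every CMP value, with the highest CMP value on CMP 3, where the probe was not well above background. The difference of the means was 1.76, or 3.38-fold. The second BC005655 probe, A_51_P236486, read -0.94, -0.91 and -0.86 in TMP and -2.76, -2.68 and -2.19 in CMP. Its groups did not overlap either, the TMP values differed by less than 0.1, and the means differed by 1.64, or 3.12-fold. Before any background correction the same pair of probes had differences of 1.73 to 2.58 within slides.

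LOC671351 had the smallest spread of the 9 probes in TMP, reading 0.55, 0.59 and 0.59 in TMP against -1.43, -0.81 and -1.08 in CMP. The groups did not overlap, and the means, 0.58 ± 0.03 in TMP and -1.11 ± 0.31 in CMP (SD, n = 3 each), differed by 1.68, or 3.21-fold. The Dcpp probe read -1.66, -1.72 and -1.39 in TMP and -2.74, -2.69 and -2.71 in CMP, 2.18-fold apart. Here the CMP arrays lay within 0.05 of each other. LOC630537 read -1.65, -1.60 and -1.12 in TMP and -2.68, -2.55 and -2.42 in CMP, a difference of 1.1 or 2.14-fold. Neither probe's groups overlapped. With the log ratio of the scanner software, the difference was 2.30 for Dcpp and 2.46 for LOC630537, and in the log2 ratios deposited by the authors 2.05 and 1.92.

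The Dcpp group was dim in control cells. All 15 values of the 5 probes in TMP were well above background in Cy5, against 10 of 15 in CMP, where CMP 3 had none of 5 and CMP 1 and CMP 2 had all. The median local background in Cy5 was 92 on CMP 3, against 43 on CMP 1 and 42.5 on CMP 2. The signal above it on CMP 3 was the highest of CMP for both BC005655 probes and LOC671351 and the lowest for Dcpp. These counts thus reflect background as well as signal. The Cy5 signal above local background of the Dcpp probe was 129 to 236 in TMP and 20 to 60 in CMP, and that of A_51_P236483 was 456 to 1205 in TMP and 102 to 235 in CMP. The Cy3 signal of the common mixture was well above background on all 18 arrays for all 9 probes.

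Spink8 read 3.79, 3.24 and 3.29 in TMP and 2.14, 1.42 and 2.51 in CMP. Each TMP array was above each CMP array, and the means differed by 1.41, or 2.67-fold. Lcn2 read -0.77, 0.23 and 1.57 in TMP and -1.28, -1.58 and 0.08 in CMP. The Lcn2 groups overlapped: TMP 1 was below CMP 3, and both groups were spread more widely (SD 1.17 in TMP and 0.89 in CMP) than those of any other of the 9 probes. The mean difference was 1.27, or 2.41-fold; it was 0.66 without TMP 3 and 1.82 without TMP 1.

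Irg1 read 0.92, -0.04 and 1.11 in TMP and -0.43, -0.47 and 0.17 in CMP on A_51_P123625, and 0.94, 0.02 and 1.11 in TMP and -0.78, -0.62 and 0.04 in CMP on A_51_P123630. On both probes TMP 2 lay below CMP 3, so the groups overlapped. The means differed by 0.91, or 1.87-fold, and by 1.14, or 2.21-fold.

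**Figure D2:**
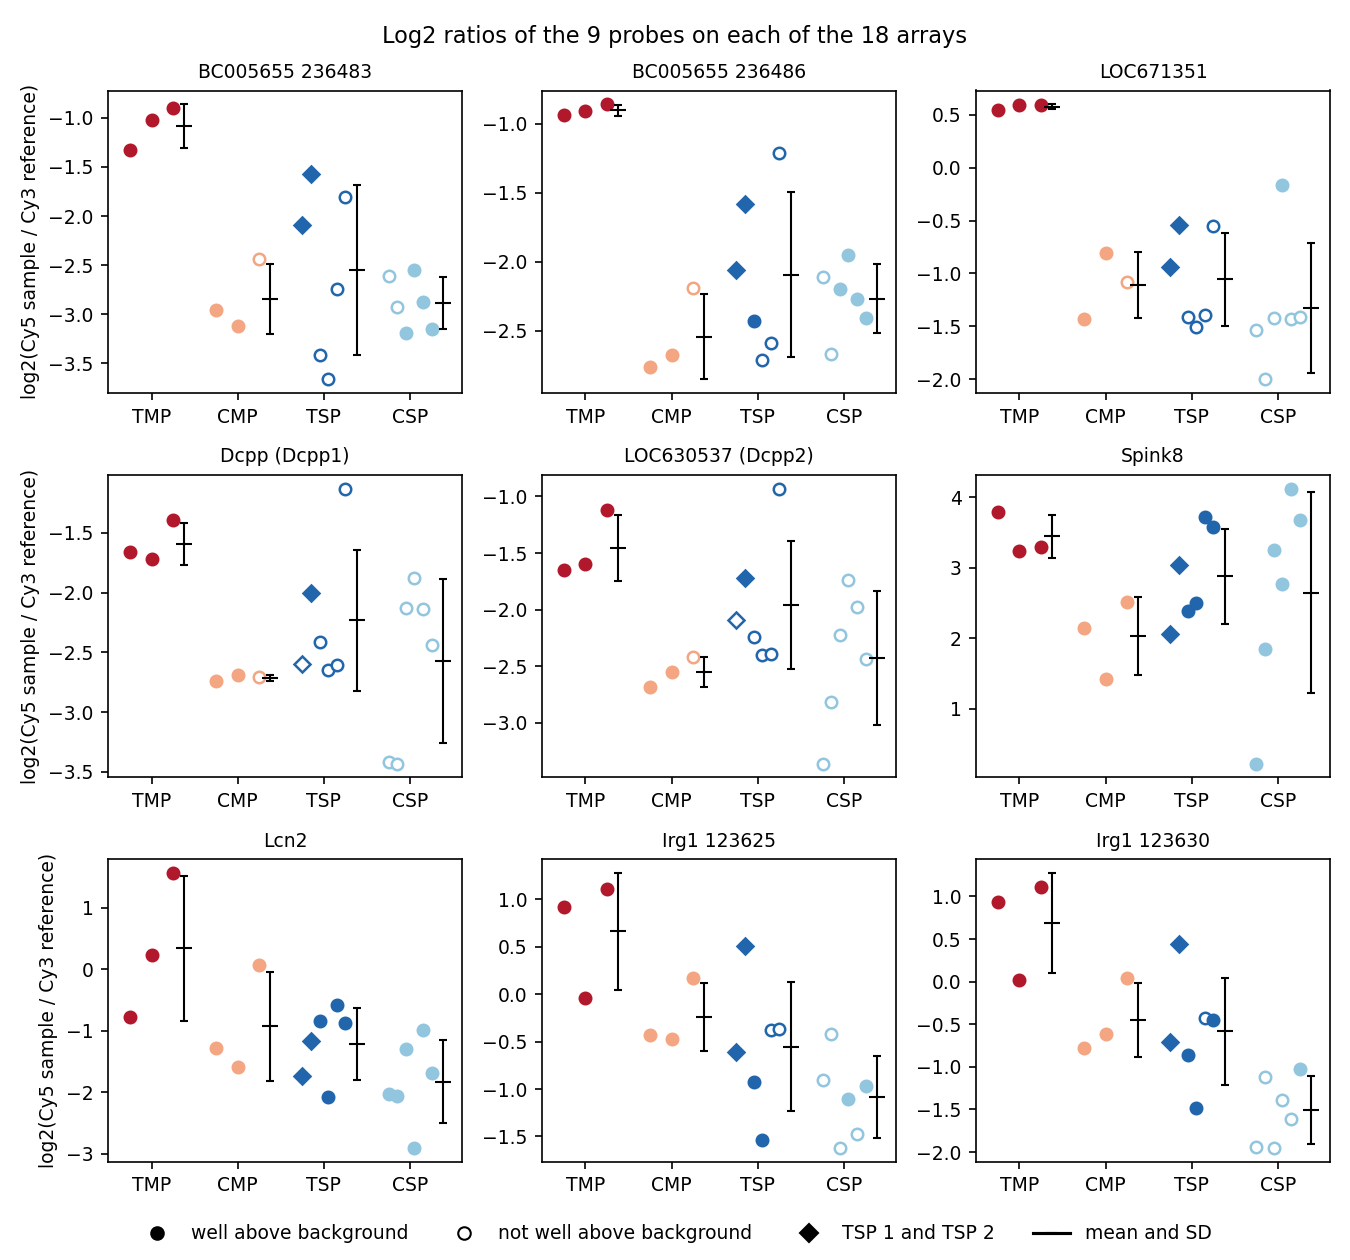
Log2 ratio of sample (Cy5) over reference mixture (Cy3) for each of the 9 probes, by group, 1 point per array. Filled points are well above background in Cy5, open points are not, diamonds are TSP 1 and TSP 2, and the bar gives the mean and SD. All 3 TMP arrays lie above all 3 CMP arrays in 6 panels, the exceptions being Lcn2 and both Irg1 probes, and most of the side population values of the 5 Dcpp probes are open.

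Counted over the probes, 6 of 9 had all 3 TMP arrays above all 3 CMP arrays, which 1.72% of all probes did. The mean was at least 2-fold higher for 8 of 9, with 0.0537% of all probes, and the A_51_P123625 probe of Irg1 fell short of it. All 9 were higher in TMP on each of the 3 slides, with 14.5% of all probes. These counts come from the contrast that chose the genes. With limma across all probes and 4 groups, 0 probes (0%) passed an adjusted p of 0.05 in TMP minus CMP. An unadjusted p below 0.05 was seen for 35 (0.117%). This fit does not use the pairs, and its spread is shared with the side population arrays, so these counts depend on the model. With the replicate block on the TMP and CMP arrays alone, 1609 of 29822 had an unadjusted p below 0.05 by limma, and 4 passed.

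The genes differed in which pair showed the larger difference. On slides 2, 4 and 5, BC005655 A_51_P236483 was higher in TMP by 1.63, 2.10 and 1.55, and LOC671351 by 1.98, 1.39 and 1.67. Dcpp differed by 1.08, 0.98 and 1.32 and LOC630537 by 1.03, 0.95 and 1.30 on the same slides. The 5 Dcpp probes thus held a difference of at least 0.95 in every pair.

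The other genes were less even. Spink8 differed by 1.65 and 1.82 on slides 2 and 4 and by 0.77 on slide 5. Lcn2 had its smallest difference, 0.51, on slide 2, where Irg1 had its largest, 1.35 and 1.73 on its probes. On slide 4 the order was the reverse, with 1.81 for Lcn2 and 0.43 and 0.63 for Irg1.

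**Figure D3:**
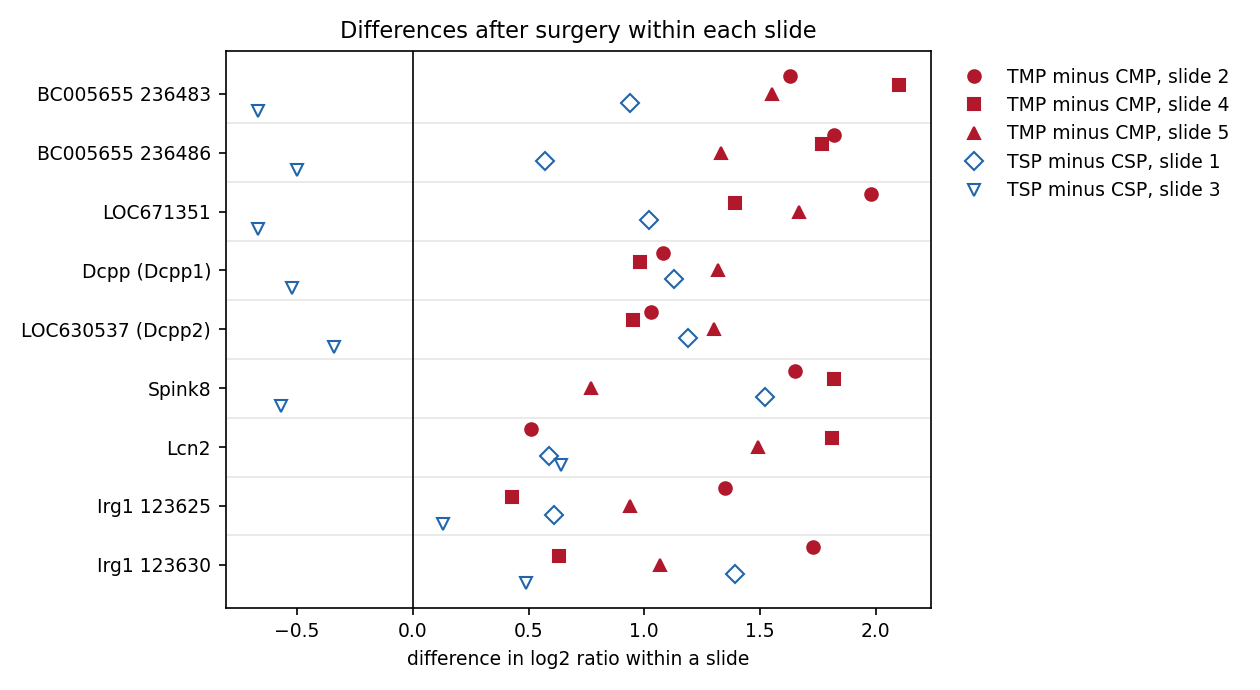
Difference in log2 ratio within a slide for each probe, TMP minus CMP on slides 2, 4 and 5 (filled, 1 array per group) and TSP minus CSP on slides 1 and 3 (open, 2 arrays per group). All 27 main population differences are above 0; the side population differences are all above 0 on slide 1 and, on slide 3, for Lcn2 and both Irg1 probes.

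In the side population none of the 9 probes passed the test, and the size of the differences depended on the processing. The arrays of TSP and CSP had no part in choosing the genes, so this contrast was tested, with limma over all 29822 probes and Benjamini-Hochberg adjustment. Of the 9 probes, 0 passed an adjusted p of 0.05, as did 0 (0%) of all probes in this fit without slide as a block. An unadjusted p below 0.05 was seen for 1 of 9, an Irg1 probe, and for 2759 probes or 9.25% of all. Means were higher in TSP for 9 of 9 probes, against 45.5% of all probes, by a median of 0.34, beside -0.0352 over all probes. With scaling between arrays 4 of 9 were higher, and without TSP 1 and TSP 2 with slide as a block 3 of 9. Without TSP 1 and TSP 2 the count was 8 of 9, against 47.2% of all, and again 0 of 9 passed (0% of all) and 1 of 9 had an unadjusted p below 0.05 by limma (3.71% of all). The Dcpp probes overlap in sequence and the Irg1 probes share bases, so these are not 9 separate readings.

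Irg1 came nearest to the threshold. Its probe A_51_P123630 had a lowest, median and highest value of -1.48, -0.58 and 0.44 in TSP and of -1.95, -1.50 and -1.03 in CSP. All TSP arrays but TSP 4 were above every CSP array. The difference was 0.92 ± 0.29 (SE), with a 95% interval of 0.31 to 1.53 and an adjusted p of 0.467 by limma (unadjusted 0.00512). Without TSP 1 and TSP 2 it was 0.70, with an adjusted p of 1 by limma. The probe was well above background on 5 of 6 TSP arrays and 1 of 6 CSP arrays, so its CSP values are at the edge of detection. The overlapping probe A_51_P123625 read -1.54, -0.49 and 0.51 in TSP and -1.62, -1.04 and -0.42 in CSP, a difference of 0.53 with an interval of -0.11 to 1.16 (adjusted p = 0.595 by limma). With the log ratio of the scanner software the Irg1 differences were 2.58 (A_51_P123630) and 1.59 (A_51_P123625), and in the log2 ratios deposited by the authors 2.66 and 1.34, with adjusted p of 0.554 to 0.645 by limma.

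Lcn2 was well above background on every array. It read -2.08, -1.02 and -0.58 (lowest, median and highest) in TSP and -2.90, -1.86 and -0.98 in CSP. The groups overlapped over most of their ranges, and the difference was 0.61, with an interval of -0.24 to 1.46 (adjusted p = 0.641 by limma). Without TSP 1 and TSP 2 it was 0.73. The interval includes 0 as well as the 1.27 seen in the main population. On both slides that held TSP and CSP, Lcn2 was higher in TSP, by 0.59 on slide 1 and 0.64 on slide 3.

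Spink8 was detected on all side population arrays and varied widely there. It read 2.06, 2.76 and 3.72 (lowest, median and highest) in TSP and 0.22, 3.01 and 4.12 in CSP, where CSP 1 was the lowest array and CSP 5 the highest of all 18. The difference was 0.23, with an interval of -0.83 to 1.29 (adjusted p = 0.921 by limma), without CSP 1 it was -0.25, and with scaling between arrays 1.80. The sign of the difference thus rested on CSP 1.

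The BC005655 and LOC671351 probes did not pass between TSP and CSP, at signals near the limit of detection. The BC005655 probe A_51_P236483 read -3.66, -2.41 and -1.57 in TSP and -3.19, -2.89 and -2.55 in CSP. Its difference was 0.33, with an interval of -0.31 to 0.98 (adjusted p = 0.763 by limma). A_51_P236486 differed by 0.17 (-0.32 to 0.67) and LOC671351 by 0.27 (-0.29 to 0.82). The BC005655 probes were well above background on 4 of 6 CSP arrays each, and on 2 and 3 of 6 TSP arrays. These calls depend on the local background of the array. A_51_P236483 was called on CSP 3 at a Cy5 signal of 29 above a median background of 42. It was not called on TSP 5 and TSP 6 at 144 and 169, where the background was 92 and 93. LOC671351 was so on CSP 4 alone in CSP and on TSP 1 and TSP 2 alone in TSP, so its difference is mostly one between values at background. Without TSP 1 and TSP 2 the differences were -0.02, 0.04 and 0.11. Whether the effect of surgery differed between the populations was not tested, since the main population values chose the genes.

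The Dcpp and LOC630537 probes lay mostly at background in the side population. Neither was well above background on any CSP array, and each was so on TSP 2 alone in TSP. The Dcpp probe averaged -2.23 in TSP and -2.57 in CSP (adjusted p = 0.748 by limma). LOC630537 averaged -1.96 in TSP and -2.43 in CSP (adjusted p = 0.612 by limma). No fold is given for either, since these are values at background. Over the 5 Dcpp probes, 9 of 30 values in TSP and 9 of 30 in CSP were well above background, and 8 of the 9 in TSP were those of TSP 1 and TSP 2. Local background was higher on slides 1 and 5 than on the other slides, so these counts do not compare signal alone.

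**Figure D4:**
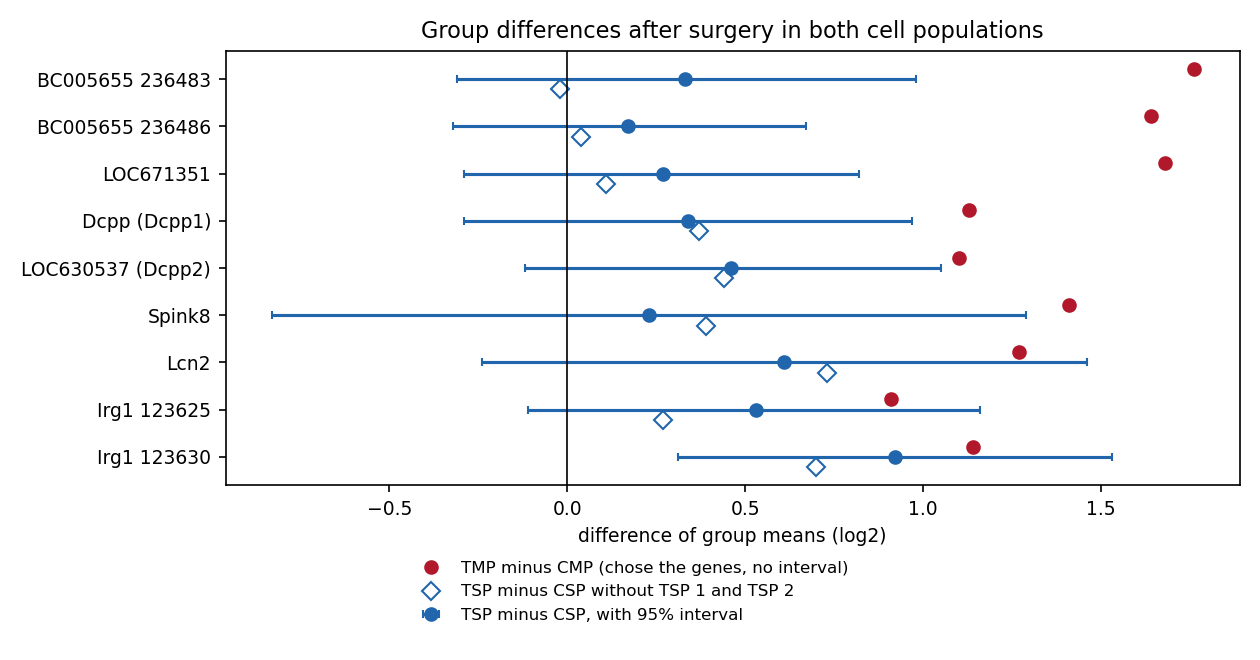
Difference of group means (log2) for each probe. Red points are TMP minus CMP, which chose the genes, blue points TSP minus CSP with the 95% interval of limma, and open diamonds TSP minus CSP without TSP 1 and TSP 2. The TSP minus CSP interval excludes 0 for 1 probe, A_51_P123630 of Irg1. The Dcpp and LOC630537 probes were not well above background on any CSP array.

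The slides that held both side population groups gave differences of opposite sign for the 5 Dcpp probes and Spink8. On slide 1 all 9 differences of TSP minus CSP were above 0, between 0.57 and 1.52. On slide 3 they lay between -0.67 and 0.64, and 3 of 9 were above 0, Lcn2 and both Irg1 probes. The Dcpp and LOC630537 probes were not well above background on any of the 4 arrays of slide 3, and LOC671351 was so on CSP 4 alone. Slide 1 held TSP 1 and TSP 2. There the mean of 14 epithelial markers was 4.89 higher in TSP than in CSP and that of 10 endothelial markers differed by -3.92, against -0.41 and 0.02 on slide 3. What the population profile of TSP 1 and TSP 2 contributed to the slide 1 differences was not tested. With slide as a block, all 9 differences were between 0.06 and 0.76, and 0 of 9 passed (adjusted p between 0.134 and 0.898 by limma), while 1091 probes or 3.66% of all did. Slides 4 and 5 each held side population arrays of 1 group only and give no such difference.

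Set side by side, the order of the groups differed between genes. For BC005655 (A_51_P236483) the means were -1.08 ± 0.22 in TMP (n = 3), -2.84 ± 0.35 in CMP (n = 3), -2.55 ± 0.87 in TSP (n = 6) and -2.88 ± 0.26 in CSP (n = 6), with SD. TMP thus stood apart from 3 groups that lay within each other's spread. LOC671351 had the same order, 0.58 in TMP, -1.06 in TSP, -1.11 in CMP and -1.32 in CSP. Over TSP 3 to TSP 6 the mean of A_51_P236483 was -2.91 ± 0.83 (SD), below CMP and CSP. That of LOC671351 was -1.21, below CMP. The place of TSP next to TMP in this order thus rested on TSP 1 and TSP 2.

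Irg1 (A_51_P123630) was highest in TMP, at 0.69 ± 0.59, followed by -0.45 ± 0.44 in CMP, -0.58 ± 0.63 in TSP and -1.50 ± 0.40 in CSP. CMP and TSP did not differ beyond their spread. CSP lay 1.05 below CMP without overlap, but this probe was well above background on only 1 of 6 CSP arrays. On A_51_P123625 of Irg1, CSP minus CMP was -0.84 and the groups overlapped. Lcn2 averaged 0.34 ± 1.17 in TMP, -0.93 ± 0.89 in CMP, -1.21 ± 0.58 in TSP and -1.83 ± 0.67 in CSP, and from CMP on, neighbours in that order differed by about their spread or less. TSP minus TMP was -1.55 and CSP minus CMP -0.90 for Lcn2. Over TSP 3 to TSP 6 the means were -0.81 for A_51_P123630 of Irg1 and -1.09 for Lcn2, which left both orders as they were.

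Spink8 averaged 3.44 ± 0.30 in TMP, 2.87 ± 0.67 in TSP, 2.64 ± 1.42 in CSP and 2.02 ± 0.56 in CMP. Over TSP 3 to TSP 6 its mean was 3.04, in the same place in the order. TSP minus TMP was -0.56 and CSP minus CMP 0.62, both within the spread of the side population arrays. These differences between populations share arrays with the contrast that chose the genes and are given without a test.

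Across the 18 arrays the 9 probes fell into groups by likeness, given as Pearson r without a test. The arrays share their groups and the dim probes share their background. The BC005655 probes had r = 0.926 with each other, and 0.857 and 0.889 with LOC671351. Dcpp and LOC630537 had r = 0.961. Both were not well above background on 12 of the 18 arrays. The Irg1 probes had r = 0.951. Spink8 was closest to Dcpp (0.714) and had 0.147 and 0.344 with Irg1. Lcn2 was closest to Irg1, with 0.650 and 0.712.

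**Figure D5:**
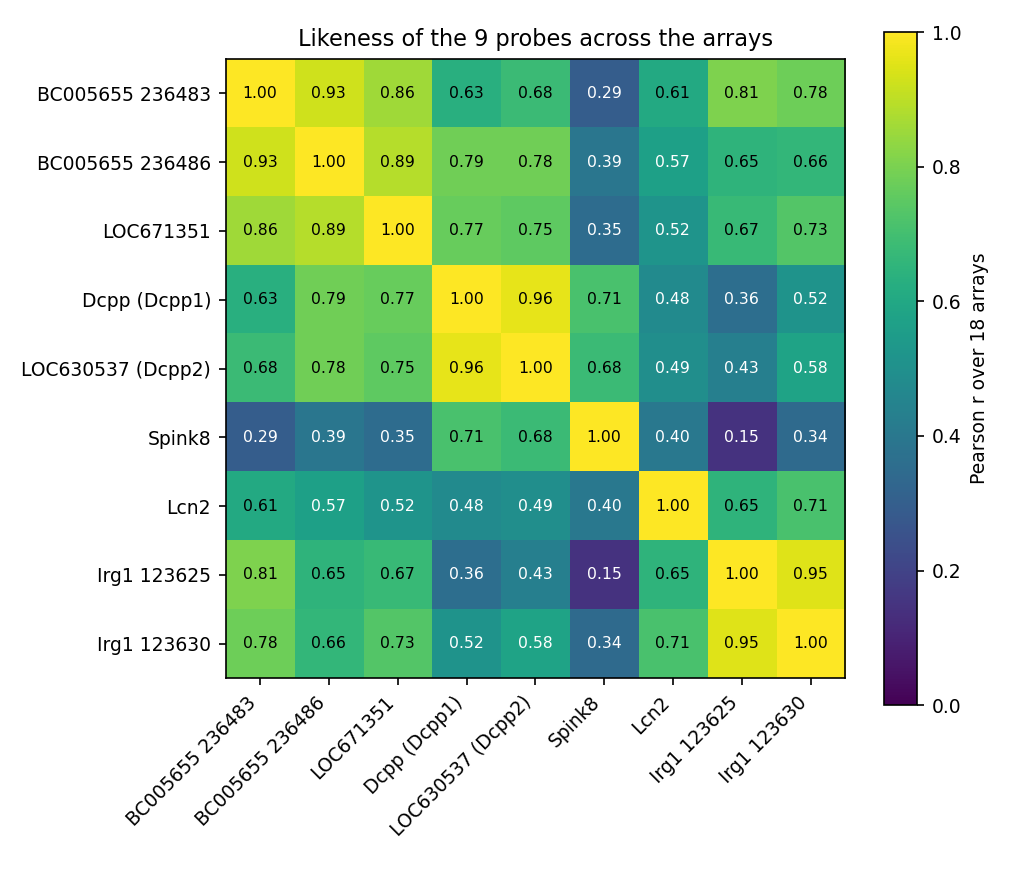
Pearson r between the log2 ratios of each pair of the 9 probes over 18 arrays, as a description without a test. The BC005655 and LOC671351 probes, Dcpp with LOC630537, and both Irg1 probes form blocks of high r, between 0.86 and 0.96, while Spink8 has r of 0.15 to 0.40 with all probes but Dcpp and LOC630537.

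Genes were also compared by the same r through the brightest probe of each gene, if it was well above background on at least 9 arrays. The genes most like BC005655 were Acp5, a phosphatase of osteoclasts and macrophages (0.849), Itgam, an integrin of myeloid cells (0.845), and Emr1, the F4/80 antigen of mouse macrophages (0.835). For LOC671351 they were BC005655 (0.857), Lilrb4, a receptor of myeloid cells (0.809), and Itgax, the CD11c integrin (0.805). For Irg1 they were Trem2, a receptor of macrophages (0.890), Tmem134 (0.888) and Bcl2a1b, an inhibitor of apoptosis (0.887).

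The remaining genes had other neighbours. Lcn2 was most like 1300012G16Rik (0.908), Ing4 (0.884) and Acadvl, an enzyme of fatty acid oxidation (0.817). Spink8 was most like Mcoln3, an ion channel (0.801), Cables2 (0.766) and Pax1, a transcription factor (0.748). Besides the probes of the 7 genes, Dcpp was most like Etfdh (0.749) and LOC630537 most like 4632423N09Rik (0.740).

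Because several of these neighbours mark macrophages, the whole macrophage list is given beside the genes. All 16 listed markers were measured. Their median TMP minus CMP was 0.32, and 0 of 16 passed the limma test. In this fit 0 (0%) of all 29822 probes passed in either contrast. A count of 0 passing, here and for the lists below, therefore says nothing about a list. The list mean was -2.54 to -1.76 in TMP and -2.57 to -2.12 in CMP, which overlap, and 15 of 16 markers were well above background on all TMP arrays against 12 of 16 on all CMP arrays. Against 1.72% of all probes, all 3 TMP arrays were above all 3 CMP arrays for 2 of 16 markers. These were Emr1 and Itgam. Emr1 read -1.74, -2.57 and -2.06 in TMP and -3.42, -2.81 and -2.93 in CMP. Itgam read 0.20, -0.38 and -0.40 in TMP and -0.86, -0.76 and -0.78 in CMP. Both are among the neighbours of BC005655 named above, by an r over arrays that include TMP and CMP. BC005655 was chosen on these groups, so the separation of its neighbours is not a separate observation, and nothing is read from the count.

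By slide, the macrophage list mean was higher in TMP by 0.70 on slide 2 (14 of 16 markers), 0.03 on slide 4 (9 of 16) and 0.36 on slide 5 (14 of 16). The Irg1 differences had the same order over the slides. On slide 4 the 5 Dcpp probes differed by 0.95 to 2.10, Spink8 by 1.82 and Lcn2 by 1.81. The part of macrophage RNA in the differences was not tested.

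Markers of other cells that make these proteins had medians near 0 in TMP minus CMP. Of 14 salivary gland markers measured, among them Aqp5, a water channel, and Klk1, tissue kallikrein, 0 passed the test. Their median difference was -0.01, and none had all TMP arrays above all CMP arrays, against 1.72% of all probes. Aqp5 read 1.34, 2.40 and 2.32 in TMP and 1.99, 1.85 and 2.32 in CMP. The salivary list mean was -1.50 to -1.05 in TMP and -1.49 to -1.04 in CMP. Of the 14 markers, 8 were well above background on all TMP arrays and 7 on all CMP arrays. Differences of the dim markers say little about their RNA. Of 11 neutrophil markers 0 passed, with a median of 0.03, and S100a8 and S100a9, which neutrophils hold in quantity, differed by -0.14 and -0.08, and the proteases Mmp8 and Mmp9 by 0.54 and 0.52, higher in TMP on all 3 slides. The neutrophil list mean was -3.31 to -2.53 in TMP and -3.36 to -2.53 in CMP, with 8 of 11 markers well above background on all TMP arrays and 7 on all CMP arrays. The thyroid follicular list had a median of 0.04 over 14 markers, and the epithelial list one of 0.05 over 14. Tg, which encodes thyroglobulin and defines the thyroid, read 4.89, 6.31 and 4.99 in TMP and 5.23, 6.13 and 4.50 in CMP. The remaining marker lists had medians of -0.01 for lymphocyte, -0.09 for airway, -0.06 for squamous epithelium, 0.10 for endothelial and 0.02 for fibroblast genes, and 0 genes passed in any.

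Lists of genes that work beside the 7 are set against all probes, whose median TMP minus CMP was -0.00289. They are not set against the 7, which were chosen for large differences. Of 24 genes induced in macrophages by lipopolysaccharide, the setting in which Irg1 is known, 0 passed in either contrast. Their median TMP minus CMP was 0.22, and 12 of 24 were higher in TMP on all 3 slides, against 14.5% of all probes. The list mean was 0.91 to 1.11 in TMP and 0.65 to 0.78 in CMP, without overlap, and differed by 0.33, 0.26 and 0.27 on slides 2, 4 and 5. Irf7, an interferon regulatory factor, and Ccl5, a chemokine, were the 2 of 24 with separate groups (against 1.72% of all probes), and were 0.64 and 0.52 higher. In the side population the median was 0.01, and 0.03 without TSP 1 and TSP 2.

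Of 24 genes of the acute phase response and epithelial defence, where Lcn2 belongs, 0 passed. Their median was 0.14 in TMP minus CMP and 0.17 in TSP minus CSP. Ceruloplasmin, Cp, which carries copper and oxidises iron, was the 1 gene of 24 with separate groups (against 1.72% of all probes). It read -1.06, -0.71 and -0.54 in TMP and -1.47, -1.67 and -1.31 in CMP, a mean difference of 0.72. The largest difference was 0.88, of Lbp, which binds lipopolysaccharide. Cxcl2 and Cxcl5, chemokines that attract neutrophils, each differed by 0.78. Lbp, Cxcl2 and Cxcl5 were among the 12 of the 24 that were higher in TMP on all 3 slides, against 14.5% of all probes. Saa3, an acute phase protein, differed by 0.19 and haptoglobin, Hp, by 0.00.

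The closer relatives in family and function had medians near that of all probes. The other lipocalins had a median of -0.03 over 14 measured, and genes of iron and siderophore handling one of 0.07 over 13, with 0 passing in each. Other serine protease inhibitors of secretions had a median of 0.09 over 8 measured of 16, and enzymes and carriers of the citric acid cycle one of -0.01 over 17. Secreted proteins of glands and goblet cells, 15 of 19 measured, had a median of 0.01, and 0 passed. Of these 15, 10 were well above background on all TMP arrays and 5 on all CMP arrays. Emr1, Itgam, Irf7, Ccl5, Cp and the other list genes with values here were chosen after their values were seen, since no list gene passed the test.

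The sex of the mice behind each array is not given beyond both being named, and Xist, the RNA expressed from the inactive X chromosome of females, differed on some slides. On slide 4 its probe A_51_P145453 read -0.87 on TMP 2 and -4.88 on CMP 2, where CMP 2 was not well above background. On slide 3 it read 1.11 and 0.42 on TSP 3 and TSP 4 and -4.37 and -4.01 on CSP 3 and CSP 4. On slides 2 and 5 it read -1.47 and -0.31 in TMP and -1.19 and 0.26 in CMP. Other Xist probes did not all show this. On TMP 2 and CMP 2, A_52_P362360 read -1.36 and -4.24, while A_52_P300376 read 0.28 and -0.04. The probes of the Y chromosome genes Uty, Kdm5d, Ddx3y and Eif2s3y were well above background on both of these arrays. There Kdm5d read 1.59 on each, and Eif2s3y 1.05 on TMP 2 and 1.97 on CMP 2. The part of sex in the differences was not tested.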

How the data were processed

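RNA of 4 groups was hybridised to 18 Agilent arrays with 2 colours. The deposited scanner files hold the intensity of each channel and its local background per spot, per the file headers, and a log10 ratio made by the authors' scanner software. That software was Agilent Feature Extraction, version 8.5.1.1 per the submitters' processing notes and 9.5.1.1 per the file headers. The series also has log2 ratios deposited by the authors for 33040 probes, with a normalization not given in the sources used here. Of their 18 columns 9 matched their own scanner file best, 8 another of the group and 1 (TSP 6) one of another group, so they served as an alternative only.

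With limma 3.58.1 in R 4.3.3, mean signals were corrected by normexp (offset 50) and normalized within arrays by loess. Control spots had weight 0, spots marked by the software were left out, and spots of a probe were averaged. The filter kept probes whose Cy5 spots exceeded background well on 3 or more of 18 arrays, and 29162 of these 29822 had a value on every array. One model with 4 group means gave the contrasts, adjusted by Benjamini-Hochberg over all probes, with calls at 0.05. The steps were tested on simulated data. The labels describe biological replicates, and p-values measure the spread between these samples.

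The replicate numbers of TMP and CMP pair the samples: deviations from the group means correlated at 0.662, 0.718 and 0.798, and each pair shares a slide. The genes, the 17 lists of 269 entries and the tests were chosen with earlier results of these data known. Every probe of the 7 genes is named. Of a list the rule named up to 3 genes that passed the test, and of other genes the 3 of highest r, among those well above background on at least 9 arrays. Names came from the array and RefSeq, with 22951 probes matched by accession and 9768 by symbol or synonym. Python 3.11.15, biopython 1.88 and matplotlib 3.10.9 served for sequences and figures.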

Additional observations from a re-analysis of the deposited data

Results flagged for a closer look

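Among the 18 groups of 6 arrays examined (TSP and CSP of each probe), 1 array stood apart by Dixon's test. LOC671351 read -0.16 on CSP 4, while the next highest CSP array read -1.41, a gap of 0.681 of the range of the group against a critical value of 0.625. CSP 4 was also the 1 CSP array on which this probe was well above background. Chance gives such a gap in about 1 of 20 groups. Without CSP 4 the difference TSP minus CSP of LOC671351 was 0.50, against 0.27 with it, and it did not pass the test (adjusted p = 0.618 by limma).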

How the results depend on the processing

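All 177 alternative values of TMP minus CMP for the 9 probes were above 0, in the contrast that chose the genes. Many of them could not differ from the main run. Changing only the filter, the flagged spots, the blocks or the other arrays in the fit gave the main values again, 0.91 to 1.76. The count of 177 is therefore no measure of how firm the differences are. The highest value, 2.73, came with the scanner log ratio in place of normexp and loess (1.15 to 2.73). That ratio did not raise every probe: Spink8 was 1.27 with it, against 1.41 in the main run. Without single arrays the values lay between 0.66 and 1.96. With the replicate block on the TMP and CMP arrays alone, added after the data were seen, 4 probes passed, 3 of them of the 7 genes, which this contrast chose, so nothing is read from it. With the block on all arrays none did. For TSP minus CSP, 0 of the 9 probes passed under any alternative run, with adjusted p of 0.107 to 1, and 204 of 218 values were above 0. The numbers of probes passing over the whole array were 1091 with slide as a block, 3 with the replicate block, 3 without TSP 1 and TSP 2 with slide as a block, and between 0 and 1 without single arrays (1 without TSP 3 or without TSP 4). The cause was not tested. TSP and CSP arrays of the same replicate number had correlations of deviations between -0.0196 and 0.466. Those of replicates 1 to 4 also shared a slide, and those of replicates 5 and 6 did not. Under the replicate block the difference of A_51_P123630 stayed 0.92 (adjusted p = 0.107 by limma). Scaling between arrays turned the sign for the 5 Dcpp probes, to -0.51 and -0.40 for BC005655 (A_51_P236483 and A_51_P236486), -0.22 for Dcpp, -0.02 for LOC671351 and -0.01 for LOC630537, and gave 1.80 for Spink8. Leaving out TSP 1 and TSP 2 with slide as a block gave -0.33 and -0.27 for BC005655, -0.26 for Dcpp, -0.66 for Spink8, -0.25 for LOC671351 and -0.15 for LOC630537. Leaving them out alone gave -0.02 for A_51_P236483. Without single arrays, A_51_P236486 ranged between 0.00 and 0.30 (lowest without TSP 6) and Spink8 between -0.25 and 0.52 (lowest without CSP 1). Lcn2 and both Irg1 probes kept their sign under every alternative run. Signal over background limits the Dcpp and LOC630537 probes most: they were well above background on 6 of 18 arrays and have no value with a filter of 9 arrays.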
